A study of Mus musculus with 15 samples.

Results

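The genes described here are 10 genes by which alveolar type 1 cells are commonly recognised: Ager, Hopx, Aqp5, Pdpn, Rtkn2, Akap5, Clic5, Cldn18, Emp2 and Lmo7. They were chosen by name, from what is known of the cell type, and with earlier results of these data known. All 10 were found among the 33340 genes of the count table, and all 10 were among the 17457 genes that passed the filter on low counts. RNA-seq was performed on whole lungs of male C57BL/6 mice, 10 to 12 weeks old, with no other allele named, at day 0, 7, 14 and 21 of a bleomycin time course. Bleomycin, a DNA-damaging drug that injures the alveolar wall and leaves a scar, was given into the trachea at 5 U/kg to the mice of days 7, 14 and 21, and the treatment label of 3 of the 4 day 0 libraries was none. Day 0 replicate 4 carries a control title and a bleomycin treatment label. It stayed with day 0 because of the title, and every member's test against day 0 was repeated without it. No member gained or lost a call, as defined below, without this library, and Lmo7 changed sign at days 7 and 21. There were 4 libraries each at days 0, 7 and 14, and 3 at day 21, each labelled as a separate replicate. The design text of the series speaks of 3 replicates per day, and the groups here follow the sample titles. The labels did not say whether each library came from its own mouse, so p-values measure only the spread between these libraries.

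Alveolar type 1 cells are thin, flat epithelial cells that cover most of the gas-exchange surface of the lung, pressed against the capillaries beneath. They do not usually divide, and after injury they are replaced by alveolar type 2 cells, the surfactant-secreting cells of the alveolus, which pass through a keratin 8-high transitional state on the way. Their identity is maintained by the transcription factor NKX2-1 together with YAP and TAZ, the effectors of the Hippo pathway, which act through TEAD factors. In RNA from a whole lung, fewer cells of a type and less RNA per cell cannot be told apart, and several of these genes are also made elsewhere in the lung.

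The regulatory sequence at the start sites of the members is shown first for Ager, the most abundant member, and for Hopx and Pdpn, whose changes differed in direction. Promoter windows of 300 bases, 250 before and 50 after the start, came from RefSeq (GRCm38.p6), which held 12 windows for 9 of the 10 members. Rtkn2 was the member not matched. The window of Ager lies at chr17:34597600-34597899 on the plus strand. Both Hopx windows are on the minus strand, at chr5:77115074-77115373 for the upstream start and at chr5:77095218-77095517 for the downstream start, and that of Pdpn lies at chr4:143299515-143299814, also on the minus strand. Each is written 5′ to 3′ in the direction of transcription, and capitals mark a match to the NKX2-1 motif CACTNNAG on either strand.
Ager: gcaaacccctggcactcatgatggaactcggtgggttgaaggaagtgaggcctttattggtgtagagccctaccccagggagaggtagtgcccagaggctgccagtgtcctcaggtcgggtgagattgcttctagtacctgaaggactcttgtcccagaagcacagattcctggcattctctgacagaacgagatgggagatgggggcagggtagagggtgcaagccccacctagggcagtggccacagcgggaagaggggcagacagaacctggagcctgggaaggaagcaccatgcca
Hopx upstream start: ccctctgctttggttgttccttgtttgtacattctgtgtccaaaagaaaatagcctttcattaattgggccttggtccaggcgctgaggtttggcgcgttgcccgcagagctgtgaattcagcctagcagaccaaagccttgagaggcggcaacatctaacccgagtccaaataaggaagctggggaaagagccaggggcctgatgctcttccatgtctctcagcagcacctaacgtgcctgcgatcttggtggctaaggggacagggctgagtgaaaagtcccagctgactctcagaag
Hopx downstream start: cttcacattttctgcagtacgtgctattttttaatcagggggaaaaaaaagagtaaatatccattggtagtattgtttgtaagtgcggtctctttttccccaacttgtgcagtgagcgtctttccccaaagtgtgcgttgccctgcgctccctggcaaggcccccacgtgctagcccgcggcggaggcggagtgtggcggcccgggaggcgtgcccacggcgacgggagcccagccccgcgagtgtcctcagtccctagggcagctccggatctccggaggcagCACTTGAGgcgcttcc
Pdpn: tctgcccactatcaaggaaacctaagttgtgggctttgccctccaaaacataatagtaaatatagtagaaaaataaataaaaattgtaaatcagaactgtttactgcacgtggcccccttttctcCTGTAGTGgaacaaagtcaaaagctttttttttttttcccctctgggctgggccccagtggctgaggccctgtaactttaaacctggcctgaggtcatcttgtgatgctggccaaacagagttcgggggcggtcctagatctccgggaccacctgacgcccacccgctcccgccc
The motif occurred in 3 of the 12 member windows (25%) and in 16% of all 32851 windows. In Pdpn it began 125 bases before the start, in the downstream window of Hopx 34 bases after it, and in Akap5 227 bases before it. The TEAD motif GGAATG was found in 0 of 12 member windows and in 14.7% of all windows. The GATA motif AGATAA was found in 2 of 12, those of Cldn18 and Lmo7, and in 11.2% of all windows. Both strands were searched, and none of these motifs contains another. These matches describe letters in the windows and not bound sites.

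The members were abundant transcripts in every library. Per kilobase of exon, Ager, which encodes the receptor for advanced glycation end products on the basal side of the cell, stood highest at day 0 with 1074 ± 217 CPM per kb (mean ± SD, n = 4), where CPM are counts scaled to a common library size. Hopx, an atypical homeodomain protein without DNA binding, followed with 209 ± 37.0 CPM per kb, and then Cldn18, a tight junction claudin, with 181 ± 40.9 CPM per kb. Emp2, a tetraspan membrane protein, had 156 ± 18.2 CPM per kb, and Clic5, a chloride intracellular channel protein tied to the actin cortex, had 130 ± 27.8 CPM per kb. Next came Aqp5, the apical water channel, with 103 ± 17.7 CPM per kb. The 4 lowest were Pdpn (podoplanin, a membrane mucin) with 72.1 ± 11.3 CPM per kb, Akap5 (a scaffold for protein kinase A) with 66.4 ± 15.9, Lmo7 (a junctional LIM-domain protein) with 63.6 ± 11.1 and Rtkn2 with 46.6 ± 10.1. In this order at day 0, the ranges of mean ± SD were apart between Ager and Hopx and between Aqp5 and Pdpn, and overlapped between all other neighbours. By day 7 Hopx had moved from rank 2 to rank 6, at 123 ± 17.1 CPM per kb, and Pdpn from rank 7 to rank 4, at 145 ± 7.55 CPM per kb. At day 7 the ranges overlapped between neighbours from Emp2 at rank 3 to Clic5 at rank 7. The exact ranks of Hopx and Pdpn among these were therefore not resolved. Ager kept the first rank and Rtkn2 the last on all 4 days.

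**Figure D1:**
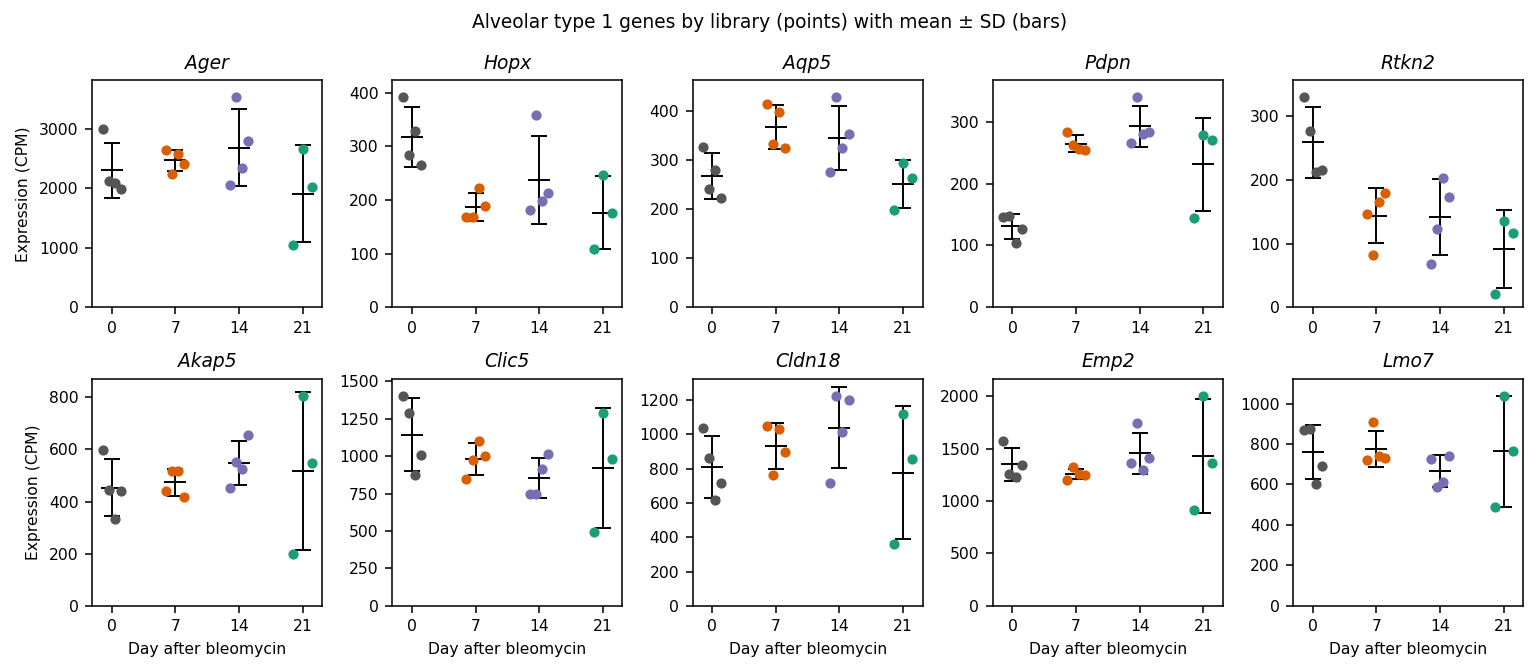
Expression of the 10 members (CPM, y axis, from 0) by day (x axis). Each point is a library, and the bars give the mean ± SD (n = 4, 4, 4 and 3). Pdpn lies above day 0 in all day 7 and day 14 libraries, Hopx lies below day 0 in all day 7 and day 21 libraries, and 1 day 21 library is the lowest of its day in all panels.

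Total counts ran from 15652008 to 18020661 per library, and raw counts of single members from 345 (Rtkn2) to 55388 (Ager). The share of counts on the 16 mitochondrial genes ran from 2.03% to 4.22% and was uneven between days: 2.03% to 2.15% at day 7, against 2.28% to 4.22% at day 0. One library stood apart for these genes. Day 21 replicate 1 was the lowest of its day for all 10 members and the lowest of all 15 libraries for 9 of them, Pdpn being the exception. Its summed CPM of the members was 3970, and the other 14 libraries had 6679 to 9872. The highest of these, 9872, was day 21 replicate 2, in which all 10 members were highest of their day. In day 21 replicate 1 the markers of heart muscle, which also makes Hopx and Lmo7, summed to 726 CPM, and to 18.1 and 24.4 CPM in the other day 21 libraries. They were also high in day 7 replicate 4, at 601 CPM, and in day 0 replicates 3 and 4, at 262 and 183 CPM, against 23.4 to 55.9 CPM in the other libraries of days 0, 7 and 14. The summed type 2 markers of day 21 replicate 1 were the lowest of all libraries, at 5127 CPM. Its matrix fibroblast markers summed to 10201 CPM, the highest of day 21, beside 5303 and 8894 CPM in replicates 2 and 3. Of all libraries only day 14 replicate 1 had more, at 13859 CPM. The part of these differences in the results was not tested. The day 21 values without this library are given with each member and list below.

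The comparison of each day with day 0 asks how the alveolar type 1 programme stood during injury and scarring. The members went different ways, and the median log2 fold change of the 10 was 0.05 at day 7, 0.16 at day 14 and -0.07 at day 21, and the medians over all genes tested were 0.01, 0.02 and 0.02. Without day 21 replicate 1 the day 21 median of the members was 0.12, and with the mitochondrial share in the fit the day 7 median was -0.17, each opposite in sign to the value above. Pdpn rose at all 3 days. Hopx fell at days 7 and 21, and Rtkn2 fell at day 21. The other 7 members passed the test at no day. A change was called where the edgeR quasi-likelihood test gave a p below 0.05 after Benjamini-Hochberg adjustment over all genes and the fold change exceeded 1.5. By this rule 2 of 10 members were called at day 7, 1 higher and 1 lower, where 16.1% of all genes were called, 8.78% higher and 7.36% lower. At day 14 there was 1 member called, higher, where 23.1% of all genes were called, 12.0% higher and 11.2% lower. At day 21 there were 3 members called, 1 higher and 2 lower, where 22.5% of all genes were called, 12.4% higher and 10.1% lower. These 3 comparisons share the day 0 libraries.

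**Figure D2:**
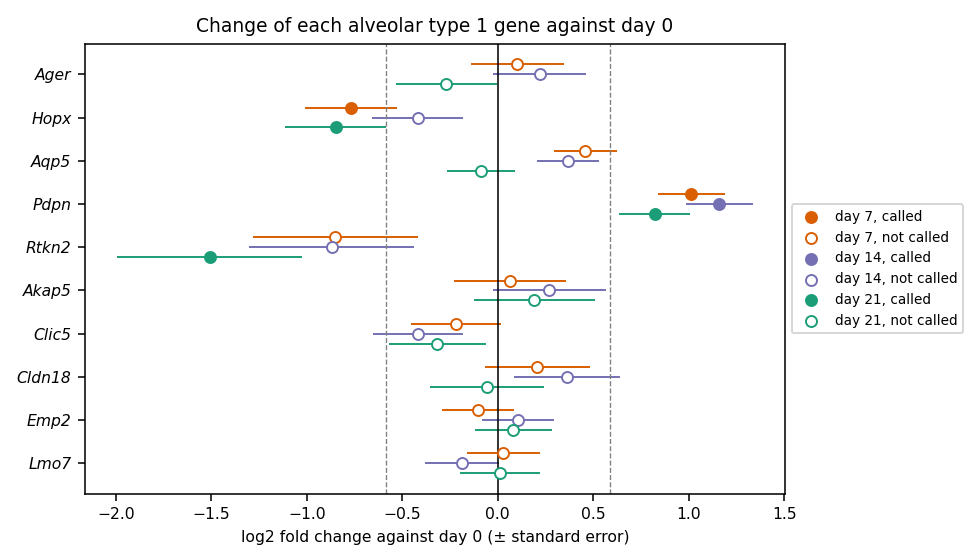
log2 fold change of each member against day 0 (x axis) with its standard error (edgeR), for days 7, 14 and 21. Filled points were called, and dashed lines mark a fold change of 1.5 in either direction. Pdpn is filled at all 3 days, Hopx at days 7 and 21 and Rtkn2 at day 21.

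Pdpn is the ligand of the platelet receptor CLEC-2 and links the membrane to the cytoskeleton. At day 0 its level was 146, 148, 104 and 126 CPM. At day 7 the libraries had 284, 263, 256 and 254 CPM, at day 14 266, 340, 280 and 284 CPM, and at day 21 144, 279 and 271 CPM. The groups did not overlap at days 7 and 14, and at day 21 only replicate 1 lay within the day 0 range. The log2 fold change was 1.01 (SE 0.18, adjusted p = 0.00107, edgeR) at day 7, 1.16 (SE 0.18, adjusted p = 0.000183) at day 14 and 0.82 (SE 0.19, adjusted p = 0.00410) at day 21. Within the libraries of low mitochondrial share (2 at day 0 and 4 at day 7) Pdpn was 0.83 higher on the log2 scale at day 7 (adjusted p = 0.00118, edgeR). Within those of high share (2 at day 0 and 3 at day 14) it was 1.38 higher at day 14 (adjusted p = 0.00195). No single library ended a call of Pdpn, and without day 21 replicate 1 the day 21 value was 1.04 (adjusted p = 0.000183). The calls at days 7 and 21 were lost when the test itself required a change beyond 1.5-fold (glmTreat in edgeR, adjusted p = 0.0673 and 0.218), and the day 14 call was not.

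Pdpn is also made by lymphatic endothelium, mesothelium and some fibroblasts and macrophages. Of 6 lymphatic markers, 0 were called at day 7 (0 also at an unadjusted p under 0.05, and 0 by DESeq2 or limma-voom), 3 were higher at day 14 and 5 at day 21, with median log2 fold changes of -0.06, 0.55 and 1.43. Their summed level at day 7, 482 to 733 CPM, stood beside 649 to 955 CPM at day 0. Most of that sum came from Lyve1, a hyaluronan receptor (404 CPM at day 7 and 628 CPM at day 0). Ccl21a and Flt4 were also lower on average at day 7, at 64.7 and 56.75 CPM, beside 78.2 and 69.8 CPM at day 0. Prox1, Mmrn1 and Reln had day 7 values of 0.16, 0.15 and 0.25. Lyve1 was called lower at day 7 in 3 of 20 other fits. Of 6 mesothelial markers 1 was called at each day, higher: Krt19, a keratin that transitional epithelium shares, at day 7 and Msln, mesothelin, at days 14 and 21. The summed mesothelial level was 361 to 531 CPM at day 0, 387 to 964 CPM at day 7, 629 to 1243 CPM at day 14 and 599 to 935 CPM at day 21. Matrix fibroblast markers were higher for 3, 4 and 5 of 7 at the 3 days, with medians of 0.39, 0.78 and 1.15. Their summed level was 1615 to 2251 CPM at day 0 and 5208 to 6480 CPM at day 7. Leukocyte and macrophage markers were higher for 3, 5 and 4 of 7, with medians of 0.75, 1.35 and 1.11. The lowest log2 fold changes in this list were -0.40, -0.40 and -0.70. Its summed level was 7026 to 8178 CPM at day 0 and 4287 to 7871 CPM at day 7. At day 14 the sum was 8521 to 10611 CPM, and at day 21 it was 5025 to 10246 CPM. Without day 21 replicate 1 the day 21 counts were 5 of 6 lymphatic, 1 of 6 mesothelial, 4 of 7 fibroblast and 3 of 7 leukocyte markers, all higher. The part of these cells in the Pdpn level was not tested.

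Hopx is a cofactor that marks most mature type 1 cells. It was at 392, 284, 329 and 266 CPM at day 0. At day 7 it was at 168, 167, 223 and 189 CPM, so that all 4 libraries lay below day 0. At day 14 it was at 181, 358, 197 and 213 CPM, with 3 libraries below day 0 and replicate 2 within its range. At day 21 it was at 109, 246 and 175 CPM, again with no overlap. The log2 fold change was -0.77 (SE 0.24, adjusted p = 0.0300, edgeR) at day 7, -0.42 (SE 0.24, adjusted p = 0.194) at day 14 and -0.85 (SE 0.26, adjusted p = 0.0244) at day 21.

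The Hopx calls were lost when some single libraries were left out, while its direction was the same in every fit against day 0. Leaving out day 0 replicate 1 or 3, or day 7 replicate 1, 2 or 4, gave day 7 values of -0.77 to -0.68 with adjusted p of 0.0549 to 0.0793. Without day 21 replicate 1 the day 21 value was -0.63 (adjusted p = 0.0907, edgeR), and without day 0 replicate 1 or day 21 replicate 3 it was -0.77 or -0.88 (adjusted p = 0.0566 and 0.0563), beside -0.85 with all libraries. Without day 14 replicate 2, the library with the highest day 14 level, the day 14 value was -0.71 and passed (adjusted p = 0.0284). With the mitochondrial share in the fit the day 7 value was -0.80 (adjusted p = 0.104), and among the libraries with a low share alone, 2 at day 0 and 4 at day 7, it was -0.87 (adjusted p = 0.00676). Within the libraries of high share the day 14 value was -0.22 (adjusted p = 0.615). Neither call held under glmTreat. Hopx shares 412 of its 1516 exon bases with Hopxos, an antisense transcript, which had 13 to 79 counts per library. The strand setting of the counting is not given in the sources used here, so reads from the shared bases may have been assigned to either gene or to neither. Heart muscle markers, from a tissue that makes Hopx, were called lower for 1 of 6 tested at day 14 (Myh6, cardiac myosin, near 0 at day 14, a call lost in 9 of 19 other fits) and for 0 at days 7 and 21, or for 1 at day 21 without day 21 replicate 1, where the median of the list went from 0.61 to -2.28 (with all libraries 0 also at an unadjusted p under 0.05, and 0 by DESeq2 or limma-voom). Their sums were 23.4, 43.4, 262 and 183 CPM in the day 0 libraries and 40.4, 28.0, 55.9 and 601 CPM in those of day 7, and without day 7 replicate 4, the highest of these, Hopx was at -0.77 at day 7.

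Rtkn2 was the member with the lowest level per kilobase. Its levels were 330, 277, 213 and 215 CPM at day 0. They were 146, 82.7, 165 and 180 CPM at day 7, 67.3, 123, 202 and 173 CPM at day 14, and 21.3, 135 and 116 CPM at day 21. Every library after bleomycin lay below every day 0 library. The log2 fold change was -0.85 (SE 0.43, adjusted p = 0.161, edgeR) at day 7, -0.87 (SE 0.43, adjusted p = 0.136) at day 14 and -1.51 (SE 0.49, adjusted p = 0.0282) at day 21. Without day 21 replicate 1 the last value was -1.07 and still passed (adjusted p = 0.0458), and without day 0 replicate 1 it was -1.40 and did not (adjusted p = 0.0592). Fits to the compared days alone called Rtkn2 lower at day 7 (-0.88, adjusted p = 0.0121) and day 14 (-0.90, adjusted p = 0.0378) as well. Among the libraries with a low mitochondrial share the day 7 value was -1.10 (adjusted p = 0.0173). With that share in the fit it was -0.92 (adjusted p = 0.297, edgeR), and among the libraries with a high share the day 14 value was -0.38 (adjusted p = 0.225). The day 21 call was lost under glmTreat (adjusted p = 0.120). Rtkn2 shares 216 of its 5547 exon bases with the antisense gene Gm16212, which had 0 to 7 counts per library.

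By overlap alone, Pdpn (higher) and Hopx and Rtkn2 (lower) were the members whose groups did not overlap at day 7, 3 of 10 beside 30.8% of all genes. At day 14 they were Pdpn and Rtkn2, 2 of 10 beside 31.1%, and at day 21 Hopx and Rtkn2, 2 of 10 beside 35.5%.

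The other 7 members, a receptor, channels, junction proteins and scaffolds, passed the test at no day. Ager had 2991, 2125, 2090 and 1995 CPM at day 0, and 2248 to 2643 CPM at day 7. It had 2047 to 3533 CPM at day 14 and 1042, 2660 and 2021 CPM at day 21. The Ager groups overlapped at each day, and its log2 fold changes were 0.10 (SE 0.24), 0.22 (SE 0.24) and -0.27 (SE 0.26, and -0.01 without day 21 replicate 1). Aqp5 came nearest to a call. It had 222 to 327 CPM at day 0 and 324 to 414 CPM at day 7, with a log2 fold change of 0.46 (SE 0.16, adjusted p = 0.0519, edgeR). Its value was 0.37 (adjusted p = 0.0974) at day 14 and -0.09 (adjusted p = 0.748) at day 21. Clic5 was at -0.22, -0.42 and -0.32 and Cldn18 at 0.21, 0.36 and -0.06. Among the libraries with a low mitochondrial share Clic5 was at -0.47 at day 7 (adjusted p = 0.0289, edgeR), under the fold limit. Among the libraries with a high mitochondrial share alone, 2 at day 0 and 3 at day 14, Cldn18 was called higher (0.77, adjusted p = 0.0240, edgeR). Emp2 was at -0.10, 0.11 and 0.08, Akap5 at 0.06, 0.27 and 0.19, and Lmo7 at 0.03, -0.19 and 0.01. Without day 21 replicate 1 the day 21 values were 0.03 for Aqp5, -0.05 for Clic5, 0.25 for Cldn18, 0.29 for Emp2, 0.54 for Akap5 and 0.22 for Lmo7, none of them called. With all libraries the standard errors were 0.23 to 0.25 for Clic5, 0.28 to 0.30 for Cldn18 and 0.19 to 0.20 for Emp2. They were 0.29 to 0.32 for Akap5 and 0.19 to 0.21 for Lmo7. For these genes this leaves room for changes of either sign, so a p above the threshold does not show equal levels. At day 21 the spread was widest: Akap5 had 199, 807 and 546 CPM, and Emp2 had 916, 2006 and 1367 CPM. Both sets spanned the day 0 range, 333 to 596 CPM for Akap5 and 1231 to 1575 CPM for Emp2.

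No member was called between the later days. In edgeR 0 of 10 were called between days 14 and 7, where 6.00% of all genes were called, 0 of 10 between days 21 and 7, where 9.54% were, and 0 of 10 between days 21 and 14, where 0.00% were. At an unadjusted p under 0.05 the members numbered 0, 1 and 1 in these comparisons, and DESeq2 and limma-voom called 0 members in each. Over all genes, days 21 and 14 gave 1714 genes at an unadjusted p under 0.05, 106 calls by DESeq2 and 0 by limma-voom. The member with the lowest adjusted p between days 21 and 7 in edgeR reached 0.0561, and that was Aqp5. Its adjusted p was 0.0260 in DESeq2, 0.0483 in limma-voom and 0.0433 in edgeR without the filter on low counts. The log2 fold changes there were -0.54, -0.56 and -0.57, under the fold limit. Without day 21 replicate 2 Aqp5 was called lower than at day 7 (-0.69, adjusted p = 0.0495, edgeR).

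To compare members apart from their shared level, each was also set against Ager within its own library. The ratio of Hopx to Ager lay below the day 0 range in every later library: it was 13.1% to 15.8% of Ager CPM at day 0, 6.34% to 8.65% at day 7, 7.63% to 10.1% at day 14 and 8.65% to 10.4% at day 21. Day 21 replicate 1, the lowest in nearly all levels, had a Hopx ratio of 10.4%. Rtkn2 was 10.2% to 13.0% of Ager at day 0, and 3.68% to 7.46%, 3.29% to 8.61% and 2.05% to 5.73% at the later days, with no overlap. Pdpn was 4.89% to 6.94% of Ager at day 0, and 9.97% to 11.7%, 9.62% to 13.0% and 10.5% to 13.8% at the later days, also with no overlap. The ratios of Hopx, Rtkn2 and Pdpn thus did not overlap those of day 0 at any of the 3 days, day 21 replicate 1 included. Of 27 exact permutation tests, two-sided, 11 gave 0.0286, the smallest p these numbers of libraries allow, and it became 0.0701 after adjustment over the 27. Complete separation could therefore not pass the threshold here unless most of the 27 had it. On the log2 scale the ratio differed from day 0 by -0.88, -0.67 and -0.56 for Hopx, by -1.004, -1.17 and -1.52 for Rtkn2 and by 0.91, 0.96 and 1.13 for Pdpn. Against the mean of the other 9 members in place of Ager, the Pdpn difference was 1.14 at day 7 and 1.24 at day 14. Aqp5 at day 7 and Emp2 at day 21 had ratios above all day 0 libraries, and Clic5 at day 14 had ratios below them. Of the 9 ratios, 4 did not overlap day 0 at each of the 3 days, beside 18.8%, 17.6% and 17.3% of all genes when set against Ager in the same way.

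**Figure D3:**
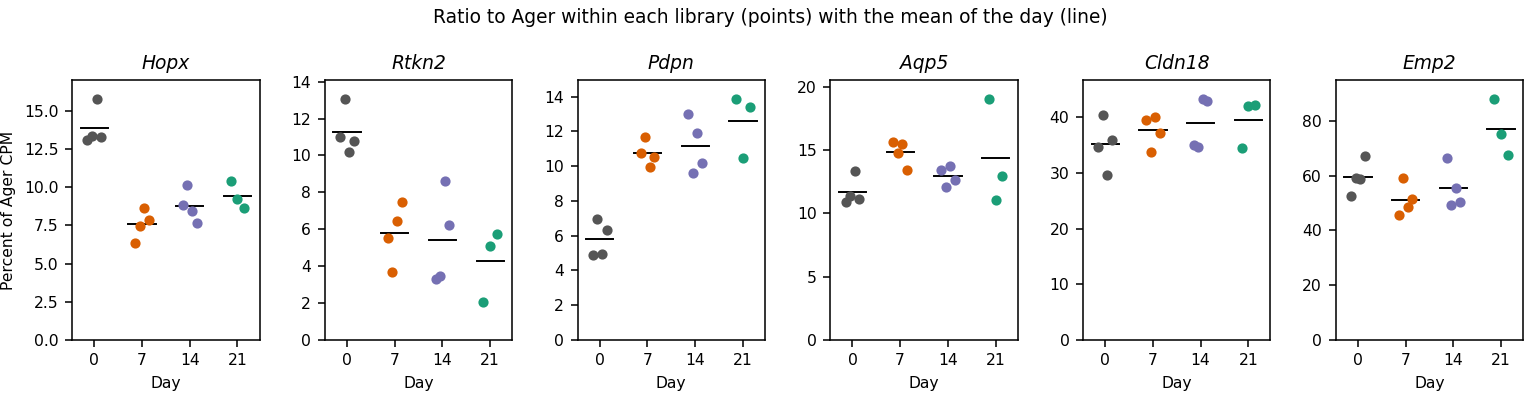
Level of 6 members as a percent of the Ager level in the same library (y axis, from 0) by day (x axis). Points are libraries and lines the mean of the day. The Hopx and Rtkn2 points of days 7, 14 and 21 all lie below those of day 0, and the Pdpn points all lie above.

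A wider list of 17 genes linked to type 1 cells also went both ways. Of these, 3 were called higher and 1 lower at day 7, 5 higher and 3 lower at day 14, and 5 higher and 3 lower at day 21, with medians of 0.13, 0.46 and 0.21. Leaving out day 21 replicate 1, the day 21 counts were 7 higher and 3 lower, with a median of 0.34. Ndnf, a secreted neurotrophic factor, rose the most and in every fit: it had 175 ± 32.4 CPM at day 0 (n = 4), 521 ± 90.9 at day 7 (n = 4), 635 ± 90.2 at day 14 (n = 4) and 622 ± 280 at day 21 (n = 3), with log2 fold changes of 1.57, 1.86 and 1.83. Igfbp2, an insulin-like growth factor binding protein of late type 1 cells, had values of 1.23 (adjusted p = 0.0402), 1.52 (adjusted p = 0.0113) and 1.33 (adjusted p = 0.0312). Its day 7 call was lost in 9 of 20 other fits and its day 21 call in 7 of 18, among them those without day 0 replicate 2, 3 or 4. Krt7, a simple epithelial keratin, rose at all 3 days (1.004, 1.07 and 0.76). Its day 21 call was lost without day 21 replicate 2 (0.54, adjusted p = 0.109, edgeR), and its day 7 and day 21 calls under glmTreat. Spock2, a matrix proteoglycan, and Col4a4, a basement membrane collagen chain, were called higher at days 14 and 21, with 0.96 and 0.77 for Spock2 and 0.66 and 0.64 for Col4a4. The day 21 calls of Spock2 and Col4a4 were each lost in fits without day 0 replicate 3 or 4 or day 21 replicate 2 or 3, and in other fits besides. The day 14 call of Col4a4 was lost without day 0 replicate 3 or replicate 4 and under glmTreat, and that of Spock2 under glmTreat. At day 21 Spock2 was at 1.03 and Col4a4 at 0.90 without day 21 replicate 1, both called.

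The genes of this wider list that fell were Cav1, Sec14l3 and Cyp2b10. Cav1, the caveolar coat protein, was lower at all 3 days (-0.60, -1.07 and -0.96, adjusted p = 0.0198, 0.000277 and 0.00144, edgeR), with levels of 1464 ± 230 CPM at day 0 and 697 ± 118 CPM at day 14. The day 7 call was lost without day 0 replicate 1 (-0.52) or day 7 replicate 2 (-0.52), with the mitochondrial share in the fit and under glmTreat, and the day 21 call under glmTreat. Cav1 is strongly made by capillary endothelium too, and of 9 capillary markers 2, 5 and 5 were called lower at the 3 days and 0 higher, with medians of -0.48, -0.60 and -0.96 and summed levels of 2849 to 3387 CPM at day 0 and 1557 to 2381 CPM at day 14. At day 21, 3 capillary markers were lower and Cav1 was at -0.86 when day 21 replicate 1 was left out. The share of capillary endothelium in the Cav1 values was not tested. Sec14l3, a lipid transfer protein, was lower at days 14 and 21 (-1.06 and -0.84), and Cyp2b10, a cytochrome P450, likewise (-1.15 and -1.43). Under glmTreat the day 21 call of Sec14l3 and the day 14 call of Cyp2b10 were lost. Genes of the list that were not called at any day with all libraries included the epithelial sodium channel subunits Scnn1a, Scnn1b and Scnn1g, and Vegfa, the growth factor by which type 1 cells sustain capillaries (-0.45, 0.03 and -0.31). Other fits called Scnn1g in 3 of 20 at day 14 (0.61 with all libraries) and 2 of 18 at day 21 (0.49), Scnn1a in 1 of 20 at day 14 (0.46) and Scnn1b in 1 of 18 at day 21 (-0.40).

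A list of 14 genes held regulators of type 1 fate together with known targets of the Hippo effectors. Of these, 1 was called higher at day 7, 2 higher at day 14, and 2 higher and 2 lower at day 21. The medians were -0.03, 0.10 and 0.15. The day 21 counts were also 2 higher and 2 lower without day 21 replicate 1, with a median of 0.19. The called rises were of Ankrd1 and Ccn2, known targets of YAP and TAZ, and a further such target, Ccn1, was not called (0.11, 0.78 and 0.33), though 2, 1 and 1 of the other fits called it. Ankrd1 went from 19.3 ± 5.66 CPM at day 0 (n = 4) to 80.6 ± 20.8 at day 7 (n = 4), 78.7 ± 40.1 at day 14 (n = 4) and 99.9 ± 42.4 at day 21 (n = 3), with log2 fold changes of 2.06, 2.03 and 2.37 that were called in every fit. Ccn2, connective tissue growth factor, which fibroblasts also secrete, had values of 0.25, 1.65 and 1.62 and was called at days 14 and 21. Among the libraries with a high mitochondrial share its day 14 value was 1.03 (adjusted p = 0.105, edgeR). The effectors themselves were not called. Yap1 averaged 152 ± 8.40 CPM (n = 4) before bleomycin and 121 ± 6.47 CPM at day 7 (n = 4), with values of -0.34 (adjusted p = 0.00709), -0.21 (adjusted p = 0.0578) and -0.25 (adjusted p = 0.0416), under the fold limit. Wwtr1, which encodes TAZ, was at -0.12, 0.22 and 0.38. Nkx2-1, the lung lineage factor, averaged 265 ± 51.7 CPM in the day 0 libraries (n = 4) and 120 ± 50.1 CPM at day 21 (n = 3). Its values were -0.33, -0.47 and -1.15, and the day 21 fall (adjusted p = 0.00302, edgeR) was called in every fit. Stk4, the kinase MST1 of the Hippo pathway, was also lower at day 21 (-0.73), a call lost under glmTreat. Since Nkx2-1 is shared with type 2 cells, its level cannot be assigned to either cell type here.

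Type 2 markers, the other alveolar epithelial list, took a different course. Of 10, 0 were called at day 7 (edgeR; 1 at an unadjusted p under 0.05, 1 by DESeq2 and 0 by limma-voom), 5 were lower at day 14 and 10 at day 21, with medians of -0.01, -0.73 and -1.56. With day 21 replicate 1 left out, 8 were lower at day 21 and the median was -1.37. The same medians of the 10 type 1 members were 0.05, 0.16 and -0.07. Sftpc, the surfactant protein specific to type 2 cells, had values of -0.48, -0.99 (adjusted p = 0.0428) and -2.39 (adjusted p = 0.000583), and its day 14 call was lost in 9 of 20 other fits. No test of the difference between the lists was run. In each library the median over the type 2 list lay between -0.23 and -1.67 at day 14 and between -1.12 and -2.15 at day 21. The same median over the members lay between -0.10 and 0.34 at day 14 and was -1.13, 0.35 and 0.01 at day 21. Day 21 replicate 1 was thus the lowest in both.

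Transitional epithelial markers were higher at each day (9, 8 and 7 of 10 at days 7, 14 and 21), with medians of 1.35, 1.49 and 1.36. When day 21 replicate 1 was left out, 6 were higher at day 21 and the median was 1.40, with Krt8 at 0.41. Cldn4, a claudin of the transitional state, went from 5.26 ± 0.908 CPM at day 0 (n = 4) to 70.1 ± 27.1 at day 7 (n = 4), 90.5 ± 52.2 at day 14 (n = 4) and 81.0 ± 26.0 at day 21 (n = 3). Krt8, the keratin that names the state, was highest at day 7, with values of 1.33 (adjusted p = 0.000472), 0.79 (adjusted p = 0.00809) and 0.59 (adjusted p = 0.0518). The day 14 call was lost in 2 of 20 other fits, and day 21 was called in 3 of 18. In day 21 replicate 1 the median over the transitional list was 1.28, and in the other day 21 libraries it was 1.33 and 1.34. That library was therefore low in type 1 and type 2 genes and not in transitional genes. General epithelial markers gave 1 of 7 higher at day 7, 2 lower at day 14 and 3 lower at day 21, with medians of 0.38, -0.11 and -0.56, the last becoming -0.71 with 4 lower without day 21 replicate 1.

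**Figure D4:**
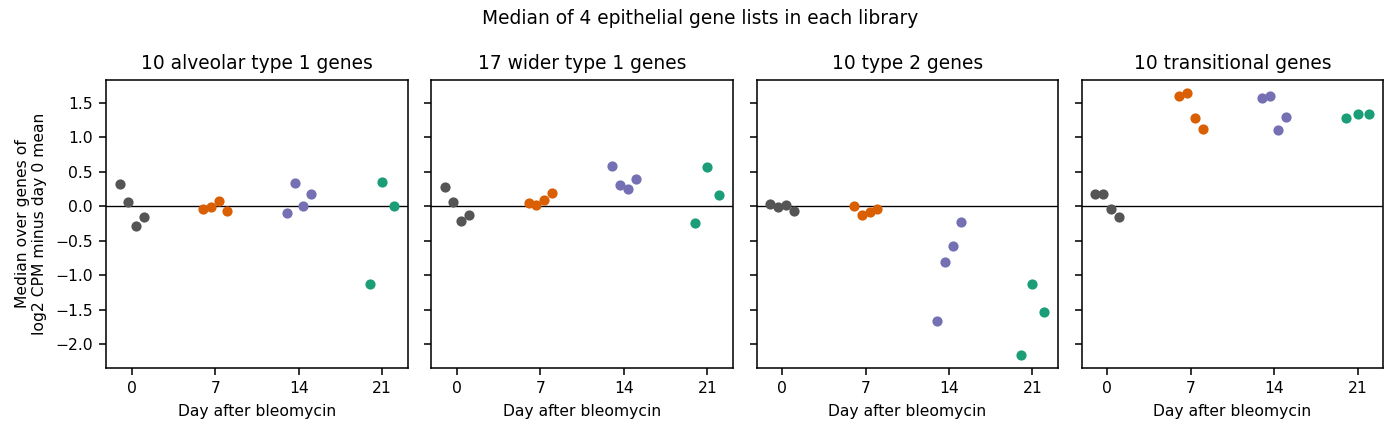
Median over the genes of a list of log2 CPM minus the day 0 mean (y axis) in each library (points), by day (x axis), for the 10 members, the wider type 1 list, type 2 markers and transitional markers. The members stay near 0 but for 1 day 21 library at -1.13, the type 2 list lies between -1.12 and -2.15 at day 21, and the transitional list lies above 1 in every library after day 0.

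The genes whose course over the 15 libraries was most like that of Ager were sought by the root mean square difference in log2 CPM minus the day 0 mean, among 11810 genes with a mean of at least 5 CPM. The 5 nearest that are no members were Cryab (0.16), Pmp22 (0.17), Fam174b (0.21), Prmt2 (0.22) and Clic3 (0.23), and the median over all genes compared was 0.51. On this measure Cldn18 was the member nearest to Ager (0.18), and Pdpn (0.86) and Rtkn2 (1.15) were the farthest. To the mean of the 10 members the nearest were Pmp22 (0.11), Fam174b (0.16), Prmt2 (0.17), Ankrd46 (0.18) and Dynll2 (0.18), with a median of 0.47 over all genes. All these values share the same libraries and scaling.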

How the data were processed

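Polyadenylated RNA from 15 whole-lung samples was sequenced. The authors aligned the reads with HISAT2 2.1.0 to GRCm38 and deposited raw counts per gene from HTSeq 0.6.0, without normalization, as the submitters' processing notes and the study's methods give them. The annotation release and strand setting are not given in the sources used here. Genes were named and placed with GENCODE M21, which matched 33267 of 33340 identifiers. The counts were analysed in R 4.3.3 with edgeR 4.0.16: filterByExpr on the day group, TMM factors, and glmQLFit and glmQLFTest on all 15 libraries with day as the only term. P-values were adjusted over all 17457 genes tested, and a called gene passed 0.05 with a fold change over 1.5. The common biological coefficient of variation was 22.8%. CPM are counts scaled by TMM to a common library size, and log2 CPM for single libraries used a prior count of 2. Per-kilobase levels divide CPM by exon length.

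Groups came from sample titles. The members, the marker lists and the rule for named genes (every member, list genes with the largest called changes and a few set by name) were chosen with earlier results of these data known. The alternatives were DESeq2 1.42.0, limma-voom (limma 3.58.1), other scalings and filters, fits to the compared days alone, a replicate block, the mitochondrial share as a covariate or fits within libraries under 2.5% or over 3.5%, glmTreat, and leaving out each library. The fitting code was tested on simulated counts. The ratio to the other members and the counts without day 21 replicate 1 were added after seeing the data.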

Additional observations from a re-analysis of the deposited data

Results flagged for a closer look

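Among 30 groups of 4 libraries of the members, 2 held a library set apart from the other 3 of its day, and chance gives about 1 in 20. Day 0 replicate 1 had 2991 CPM of Ager, and the other 3 had 1995 to 2125 CPM. Day 7 replicate 2 had 909 CPM of Lmo7, and the other 3 had 721 to 743 CPM.

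The effect against day 0 differed between later days for 5 genes of the wider type 1 and regulator lists (edgeR, adjusted p over all genes), and for none of the 10 members. From day 7 to day 14, Sec14l3 differed by -0.67 (adjusted p = 0.0320), Col4a4 by 0.73 (adjusted p = 0.0392) and Ccn2 by 1.40 (adjusted p = 0.0263). From day 7 to day 21, Col4a4 differed by 0.71 (adjusted p = 0.0408), Cyp2b10 by -1.08 (adjusted p = 0.0292), Nkx2-1 by -0.81 (adjusted p = 0.0428) and Ccn2 by 1.37 (adjusted p = 0.0242). Each of these 7 calls was lost in several other fits: 8 of 19 for Sec14l3, 10 of 19 and 11 of 18 for Col4a4, 5 of 18 for Cyp2b10, 8 of 18 for Nkx2-1, and 6 of 19 and 7 of 18 for Ccn2.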

How the results depend on the processing

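Of the single-member results against day 0 under other fits, 531 kept their direction and side of the threshold, 15 lost a call, 5 gained one and 29 changed sign. All sign changes were of members not called. Between later days 522 kept both, 0 lost a call, 1 gained one and 27 changed sign, and day 0 libraries were not left out there. The number of members called at day 7 was 2, and it became 0 under glmTreat, 1 with the mitochondrial share as covariate, 3 in the fit to the compared days alone, 3 among libraries with a low mitochondrial share and 1 to 2 leaving out 1 library. At day 14 it was 1, and it became 2 in the fit to the compared days alone, 2 among libraries with a high mitochondrial share and 1 to 2 leaving out 1 library. At day 21 it was 3, and it became 0 under glmTreat and 1 to 3 leaving out 1 library. Between days 21 and 7 it was 0, and 0 to 1 leaving out 1 library. Under the replicate block the counts were 2, 1 and 3. Deviations of same-numbered libraries of different days had correlations of -0.24 to 0.40 (median 0.04, over 0.1 in 8 of 21). Those of differently numbered libraries had -0.33 to 0.26 (median -0.03, over 0.1 in 13 of 63). These overlapping ranges do not settle whether the replicate numbers pair the libraries. The block ended no call of a member.

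The sign of Lmo7 at day 7 changed to -0.00535 with a mean of at least 1 CPM, -0.22 with the covariate and -0.18 among low-share libraries. Akap5 became -0.14 with the covariate and -0.15 among low-share libraries, and Ager -0.0673 and Cldn18 -0.0395 among low-share libraries. At day 21 Lmo7 became -0.00906 with DESeq2 and with RLE factors, -0.0425 with limma-voom, -0.0118 with a mean of at least 1 CPM, -0.0289 with no filter, -0.0127 with the replicate block and -0.0185 with the compared days alone, and Akap5 -0.00592 with limma-voom. Leaving out 1 library, the ranges were -0.0800 to 0.196 for Akap5 and -0.0874 to 0.0785 for Lmo7 at day 7, and -0.0127 to 0.161 for Emp2 at day 14. At day 21 they were -0.251 to 0.0254 for Aqp5, -0.45 to 0.25 for Cldn18, -0.32 to 0.54 for Akap5, -0.28 to 0.29 for Emp2 and -0.31 to 0.22 for Lmo7. The cause was not tested. Scaling moved the median of all genes by less than 0.03. With 3 or 4 libraries a day, the standard errors limit what small changes could be seen.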
